A study of Mus musculus with 6 samples.

Results

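The genes described here are 9 regulators and markers of endoderm, the layer that lines the gut and, outside the embryo proper, the yolk sac. They are the transcription factor genes Gata4, Gata6, Sox7, Sox17 and Foxa2 and the marker genes Dab2, Amn, Apoe and Cubn. They were chosen by name, with results of this same comparison known, so their differences are given as descriptions without a test. The platform annotation used here covers only the 18312 probes of the authors' deposited log2 values. Each of those had a detection p-value under 0.01 on some array. Every probe that the annotation gives to one of these symbols was taken. That yielded 12 probes for 7 of the 9 genes, out of 15550 probes with 1 gene name that cover 10252 genes. Gata4 and Cubn had no named probe in the tables used here, so they have no value below. A gene without a named probe, here and in the lists below, may lack a probe on the array. It may also have only probes that no array detected at that level, or that carry no name.

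The arrays hold total RNA of immortalized mouse cells, 3 samples labelled posterior and 3 labelled anterior. Both groups are described as mesenchyme of the limb bud of the mouse at stage E10.5, and both express a temperature-sensitive T antigen of SV40, a viral protein that keeps cells in division. No label names a promoter, a strain or a number of clones, and none says that the samples of a group were separate cultures. The p-values therefore reflect the variation among 3 samples a group, and whether that is technical or biological is not given. Differences are posterior minus anterior throughout. The posterior arrays detected 17784 to 18657 probes and the anterior arrays 16052 to 17705. Over all tested probes, arrays of 1 group correlated at 0.971 to 0.989 and arrays of different groups at 0.882 to 0.905. Levels of different probes are not comparable with each other.

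The labels were checked on marker genes before the results. Of 18 limb mesenchyme genes 7 had a tested probe, and no anterior array detected 2 of the 7. In the limma fit 5 were higher in posterior, 1 was lower and 1 did not pass. For this count and those below, 47.4% of all 9908 tested genes passed, 25.9% higher and 21.5% lower. The largest change was that of Tcf15, a mesoderm factor, which lay at 5.76 in posterior and 9.01 in anterior and fell 9.54-fold (adjusted p = 2.96e-06). Twist1, a factor of early mesenchyme, lay at 7.54 in posterior and 5.99 in anterior (adjusted p = 0.00101), and Msx1 at 7.17 in posterior and 5.07 in anterior (adjusted p = 0.000169). Pdgfra, which marks limb mesenchyme and primitive endoderm, read 5.73, 6.96 and 6.60 in posterior and was detected on no anterior array. Fgf10, the limb bud FGF, was near the detection limit, at 4.92 in posterior and 4.95 in anterior (adjusted p = 0.870). Prrx1, Prrx2 and Tbx5 had no named probe.

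Genes of pluripotent stem cells, which limb mesenchyme is not known for, gave clear signals, above all in the libraries labelled anterior. Of 15 such genes 13 were detected on all 6 arrays, 13 were lower in posterior, 0 were higher and 2 did not pass. Pou5f1 lay at 6.82 in posterior and 11.62 in anterior, Esrrb at 8.33 in posterior and 12.76 in anterior, Utf1 at 6.06 in posterior and 10.28 in anterior, and Zfp42 at 7.82 in posterior and 11.91 in anterior. Sall4 and Lin28a did not pass, with log2 differences of -0.33 and -0.50 (adjusted p = 0.0993 and 0.148 in the limma fit). Lin28a passed as lower without posterior replicate 3 (adjusted p = 0.0462), and Sall4 with robust variances (adjusted p = 0.0478). These values go against the labels of limb mesenchyme. What cells the libraries hold was not tested, and every difference below is one between the libraries labelled posterior and those labelled anterior.

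Endoderm arises more than once in the mouse embryo. Primitive endoderm forms beside the epiblast under FGF signalling, with GATA6 as its main regulator, and gives the visceral and parietal endoderm of the yolk sacs. Definitive endoderm comes later from the epiblast at gastrulation and builds the gut. GATA4, GATA6 and SOX7 mark the extraembryonic lineages, though GATA6 is shared with other endoderm. FOXA2 marks visceral and definitive endoderm, and SOX17 is used by extraembryonic and definitive endoderm alike. DAB2 is an adaptor for clathrin-mediated uptake, AMN and CUBN together form the cubam receptor of absorptive epithelia, and APOE is a lipoprotein that visceral endoderm secretes. None of these genes belongs to endoderm alone. GATA6 also acts in heart and limb bud mesenchyme, SOX7 and SOX17 in endothelium, FOXA2 in the node and floor plate, and APOE in macrophages and many other cells.

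The factors Gata6 and Sox17, the marker Dab2 and 2 of 3 probes of Sox7 were brighter in the libraries labelled posterior, Apoe was brighter in those labelled anterior, and the groups overlapped for Amn. Foxa2 was near the detection limit and was clearly detected on 1 posterior array. Levels are normalized log2 intensities, and a probe counts as detected on an array when its detection p-value is under 0.05. On these arrays the lowest level of a detected probe lay between 4.70 and 4.91. Of the 12 probes, 10 were detected on at least 3 of the 6 arrays and entered the limma fit over all probes. Since the genes were chosen on this contrast, nothing is read from how many passed: 8 of the 10 met an adjusted p of 0.05, 7 higher and 1 lower, and 42.6% of all tested probes did. In 8 of the 10 the groups did not overlap, as in 54% of all tested probes. No anterior array detected 4 of the 10, which therefore entered the fit through posterior alone and had to come out higher.

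**Figure D1:**
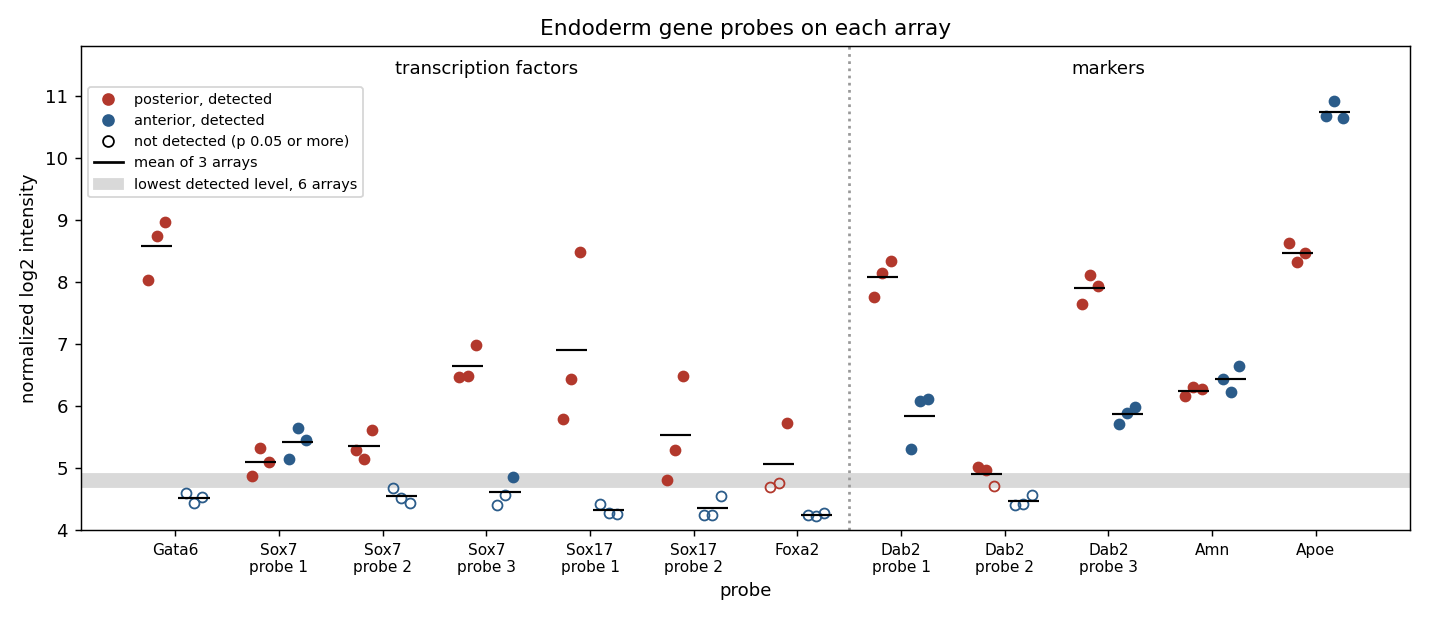
Normalized log2 intensity of the 12 probes on each array, with posterior left of anterior, filled circles for detected and open circles for undetected values, and the mean of the 3 arrays as a line. Gata6 lay between 8.03 and 8.96 on the posterior arrays and under the grey band of lowest detected levels on the anterior ones, while Apoe lay between 8.31 and 8.62 in posterior and above 10.6 in anterior.

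Gata6 showed the largest difference of the 12 probes. This zinc finger factor drives primitive endoderm and, in the mouse limb bud, is known as an anterior gene that restrains Shh. The deposited intensities of its probe (ILMN_2868133) were 388.7, 467.3 and 511.7 on the posterior arrays, against 70.4, 62.7 and 65.2 on the anterior arrays. After normalization these became 8.03, 8.74 and 8.96 in posterior, against 4.60, 4.44 and 4.53 in anterior. All 3 posterior values were high and no anterior array detected the gene, so only a bound on the fold can be given, at least 13.4-fold higher. The fitted log2 difference was 4.05 (SE 0.23). In the authors' deposited log2 values, which keep the background signal, it was 2.63. Bulk arrays cannot tell fewer cells of a type from less RNA per cell, here and in every result below.

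The probes of Sox7, the SOX factor of parietal and visceral endoderm and of endothelium, disagreed. Probe 3 (ILMN_2889482) read 6.47, 6.48 and 6.98 in posterior, against 4.40, 4.57 and 4.85 in anterior, where 1 of 3 arrays detected it. Its groups were apart, with a log2 difference of 2.03 (SE 0.19). Probe 2 (ILMN_2653251) pointed the same way but was dim, with 5.29, 5.15 and 5.61 in posterior, against 4.68, 4.52 and 4.44 in anterior, where no array detected it. That gives a bound of at least 1.43-fold higher. Probe 1 (ILMN_1234505), which was designed on a separate cDNA clone, was detected on all 6 arrays with 4.87, 5.32 and 5.10 in posterior, against 5.15, 5.64 and 5.44 in anterior. Here the groups overlapped, and the log2 difference was -0.32 (SE 0.18). The mean of the 3 probes gave a log2 difference of 0.84, so the size for Sox7 depends on the probe.

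Sox17, shared by extraembryonic and definitive endoderm, was undetected on every anterior array and uneven among the posterior ones. Its probe 1 (ILMN_2747986) read 5.78, 6.43 and 8.47 in posterior, against 4.43, 4.27 and 4.26 in anterior. Posterior replicate 3 stood well above the other posterior arrays, although all 3 lay above anterior. Probe 2 (ILMN_2784446) had the same shape, with 4.81, 5.28 and 6.49 in posterior, against 4.24, 4.25 and 4.55 in anterior. For probe 1 the bound was at least 4.18-fold higher, or 2.42-fold without posterior replicate 3. For probe 2 it was at least 1.62-fold, or 1.16-fold without that array. The log2 difference of probe 1 was 2.57 (SE 0.57), and 1.79 without posterior replicate 3. For probe 2 it was 1.18 (SE 0.37), and 0.70 without that replicate.

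Foxa2, a forkhead factor of visceral and definitive endoderm, was near background. Its only named probe (ILMN_1246216) read 4.69, 4.75 and 5.73 in posterior, against 4.24, 4.23 and 4.28 in anterior. Detection p-values were 0.0534, 0.0502 and 0 in posterior, so only replicate 3 detected the probe by the threshold used, and the probe was not fitted. No anterior array detected it, with detection p-values from 0.793 to 0.94. The bound of at least 1.17-fold higher rests on posterior replicate 3. Without it the posterior mean was 4.72, under the anterior floor of 4.83, and no bound can be given.

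The spread of Sox17 among the posterior arrays was wide for this data set. The SD of probe 1 was 1.41 (n = 3), the median over all tested probes was 0.159, and 0.0767% of tested probes had a larger one. For probe 2 the SD was 0.864, which 1.06% exceeded, and for Foxa2 0.585, which 3.10% exceeded. For Gata6 it was 0.486. Among 9908 genes, 13 had posterior replicate 3 at least 1 log2 unit above both other posterior arrays, and Sox17 led them by size, with 2.05 above the next array. The other 12, listed after their values were seen, were Csnk2a1, Grhl2, Bach1, Rab25, Minar2, Esrp1, Chac1, Cldn3, Slc7a3, Ripply3, Prrc2c and Prtg. Among all tested probes, 31 lay at least 1 unit above both other arrays on replicate 3 and 35 at least 1 unit below. Of the 50 tested genes in the endoderm lists below, 0 lay that far above both. The summed intensity of the definitive list after normalization was nonetheless 6154 on posterior replicate 3, against 3412 and 4000 on the others. For all endoderm lists together it was 37249, against 28256 and 37231. Bright probes weigh most in such sums. What sets posterior replicate 3 apart in Sox17 and in the other genes was not tested.

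**Figure D2:**
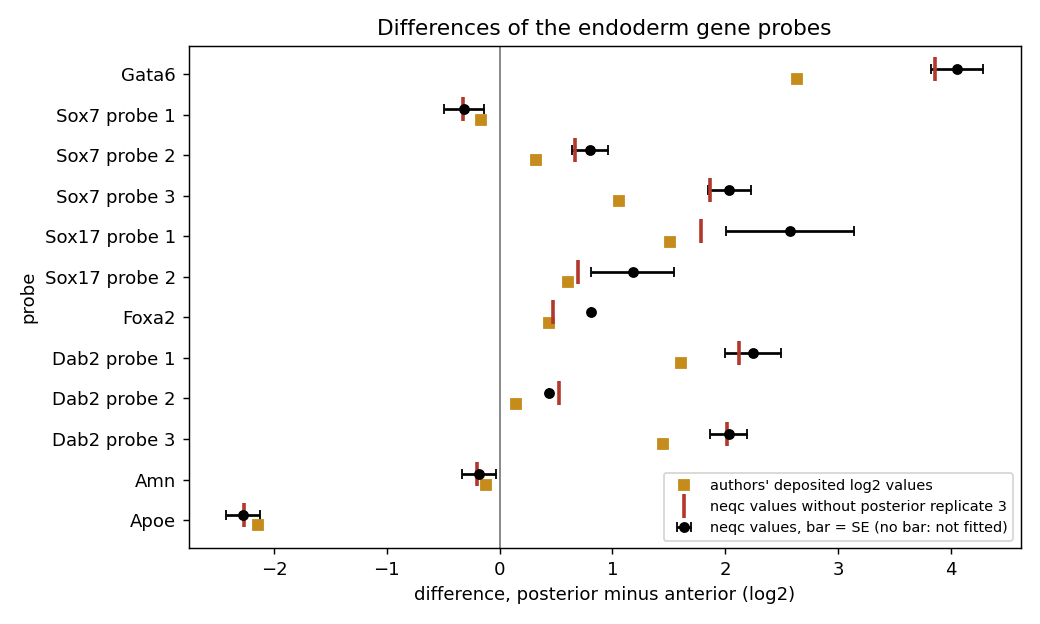
Posterior minus anterior log2 difference of each probe from the normalized values (black, with SE where fitted), from the authors' deposited log2 values (yellow) and without posterior replicate 3 (red bar). Leaving that array out moved Sox17 probe 1 to 1.79, against 2.57 with it, while Apoe and Dab2 probe 3 moved little, and the authors' values gave smaller differences for the dim probes.

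Among the markers, Dab2 was the one that went with the factors. The protein links cargo receptors such as megalin to clathrin, and in the mouse its gene is a known target of GATA6 in visceral endoderm. Probe 1 (ILMN_1243329) read 7.75, 8.15 and 8.34 in posterior, against 5.30, 6.08 and 6.11 in anterior. Probe 3 (ILMN_3091641) read 7.64, 8.12 and 7.93 in posterior, against 5.71, 5.89 and 5.99 in anterior. Both were detected on all 6 arrays and their groups were apart, with log2 differences of 2.25 (SE 0.25) and 2.03 (SE 0.16), or 4.75-fold and 4.09-fold higher. Dab2 thus differs from Gata6 and Sox17 in that the anterior cells also gave a signal. Probe 2 (ILMN_2543173), designed on another cDNA clone, was near background, with 5.02, 4.97 and 4.71 in posterior, against 4.40, 4.42 and 4.57 in anterior. It was detected on 2 posterior arrays and no anterior array and was not fitted.

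The promoter windows of the members were searched for short factor motifs on both strands. RefSeq windows on GRCm38.p6, from 250 bases before to 50 after an annotated start, were at hand for 5 of the 9 genes, with 10 windows in all. Gata4, Gata6, Sox7 and Sox17 had no window in the set used, which does not mean that they lack an annotated start. The letters were GATAA for GATA factors, ACAAT for SOX factors and TAAACA for forkhead factors, and no 2 matches overlapped. GATAA or its reverse complement lay in 2 of the 10 windows, against 25.4% of 32851 windows of all genes, ACAAT in 1, against 31.0%, and TAAACA in 2, against 13.4%. The Dab2 window at chr15:6299539-6299838 on the plus strand holds the GATA letters in both orientations, at bases 73 to 77 and 265 to 269 of the window. The second Dab2 window, at chr15:6386498-6386797 on the plus strand, holds the forkhead letters at bases 191 to 196. One Foxa2 window, at chr2:148045415-148045714 on the minus strand, holds GATAA at bases 69 to 73. Of the Apoe windows, 1 holds ACAAT and another TAAACA, and the windows of Amn and Cubn hold none of the motifs. These are matches of letters and not shown to be bound. The Dab2 and Foxa2 windows that hold a match are printed 5′ to 3′, with the matched letters in capitals, since DAB2 is the known GATA6 target among the markers and Foxa2 is a factor with a GATA match.
Dab2, the first start: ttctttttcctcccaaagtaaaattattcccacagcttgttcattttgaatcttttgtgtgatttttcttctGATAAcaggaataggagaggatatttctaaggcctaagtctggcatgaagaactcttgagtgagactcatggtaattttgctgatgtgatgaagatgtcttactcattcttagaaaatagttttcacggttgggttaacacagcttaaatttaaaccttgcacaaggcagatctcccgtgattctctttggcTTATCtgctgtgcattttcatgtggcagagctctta
Dab2, the second start: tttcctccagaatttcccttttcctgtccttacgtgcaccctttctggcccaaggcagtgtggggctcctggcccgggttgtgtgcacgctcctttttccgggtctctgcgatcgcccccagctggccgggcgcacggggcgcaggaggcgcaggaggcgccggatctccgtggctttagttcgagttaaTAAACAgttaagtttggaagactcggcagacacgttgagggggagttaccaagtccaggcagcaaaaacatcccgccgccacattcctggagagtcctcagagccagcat
Foxa2, the third start: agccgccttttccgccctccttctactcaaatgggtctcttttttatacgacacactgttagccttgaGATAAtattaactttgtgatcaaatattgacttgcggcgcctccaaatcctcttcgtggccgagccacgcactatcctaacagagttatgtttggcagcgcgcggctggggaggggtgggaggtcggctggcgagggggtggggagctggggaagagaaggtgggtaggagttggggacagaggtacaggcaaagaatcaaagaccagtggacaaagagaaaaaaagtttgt

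Amn, which anchors cubilin in the membrane of absorptive cells, did not follow Dab2. Its probe (ILMN_2675289) read 6.16, 6.30 and 6.28 in posterior, against 6.43, 6.22 and 6.65 in anterior, all of them detected. The groups overlapped, and the log2 difference was -0.19 (SE 0.15). The sign depended on the scaling, since with arrays scaled to a common median the difference was 0.12.

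Apoe, the apolipoprotein of visceral endoderm, macrophages and many other cells, went the other way. Its probe (ILMN_1216042) read 8.62, 8.31 and 8.46 in posterior, against 10.66, 10.92 and 10.63 in anterior. Every array detected it and the groups were far apart, with a log2 difference of -2.27 (SE 0.15), or 4.84-fold lower in posterior. The deposited intensities were 552.9, 363.2 and 380.4 in posterior, against 1372.9, 2506.5 and 1537.5 in anterior. The authors' values gave a log2 difference of -2.14, so this bright probe hardly depended on the background correction.

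Set side by side, the factors and the markers did not move as 2 blocks. Of the 6 fitted factor probes, Gata6, both probes of Sox17 and probes 2 and 3 of Sox7 were higher in posterior, and probe 1 of Sox7 was on the other side of 0 with overlapping groups. No anterior array detected 4 of these higher probes. Of the 4 fitted marker probes, probes 1 and 3 of Dab2 were higher, Apoe was lower and Amn overlapped. Foxa2 and probe 2 of Dab2 were not fitted and are not counted. With the members chosen on these values, no test of factors against markers, or of extraembryonic against definitive members, is given. Of the factors that definitive endoderm also uses, Sox17 varied most among the posterior arrays.

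Other endoderm genes were then counted from 5 lists that had been written with earlier results of these data known, members left out. Of 84 listed genes 50 were tested, and in the limma fit 28 of these were higher in posterior, 8 were lower and 14 did not pass. Over all 9908 tested genes 47.4% passed, 25.9% higher and 21.5% lower. The median log2 difference of the 50 genes was 0.64, or 0.54 when each undetected gene is set to its bound, against 0.03 over the 9902 other genes. Of the 50, 12 were detected on no anterior array and were tested through posterior alone. Among the 32 that were detected on all 6 arrays, 22 passed, 14 higher and 8 lower. Over all genes with that filter, 3676 of 8063 passed, 1791 higher and 1885 lower. Of the listed genes that passed, 63.6% were then higher, against 77.8% in the main fit.

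In the primitive endoderm list 10 of 15 tested genes were higher, 2 were lower and 3 did not pass, with a median log2 difference of 1.77. Krt18 and Krt8, the keratins of simple epithelia, lay at 10.66 ± 0.41 and 11.26 ± 0.46 in posterior, against 6.36 ± 0.15 and 7.58 ± 0.20 in anterior (SD, n = 3 each). Both rose in the limma fit (adjusted p = 2.89e-06 and 9.18e-06). Gpc3, a heparan sulphate proteoglycan, rose 11.9-fold (adjusted p = 4.74e-06), and Serpinh1, the chaperone of collagen, 8.47-fold (adjusted p = 2.02e-06). Hnf4a, the nuclear receptor of visceral endoderm and liver, lay near the detection limit, at 4.89 in posterior and 5.06 in anterior (adjusted p = 0.353). P4ha1, a collagen hydroxylase subunit, had a log2 difference of 0.09 (adjusted p = 0.707).

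Parietal endoderm secretes the thick basement membrane of Reichert, and 9 of 14 tested genes of its list were higher, 2 lower and 3 not past, with a median of 0.92. The type IV collagen genes Col4a1 and Col4a2 rose 6.02-fold and 8.37-fold (adjusted p = 7.25e-05 and 3.86e-05 in the limma fit). Plat, the tissue plasminogen activator, lay at 9.27 ± 0.28 in posterior (SD, n = 3), against 4.83 ± 0.27 in anterior (SD, n = 3), where 2 of 3 arrays detected it (adjusted p = 1.72e-06). Pth1r, the receptor of parathyroid hormone-related protein, was at least 3.55-fold higher. The laminin chains did not follow the collagens, with log2 differences of 0.08 for Lama1 (adjusted p = 0.760) and -0.41 for Lamc1 (adjusted p = 0.123). Lamc1 passed as lower without anterior replicate 1 (adjusted p = 0.0242) and with the mean of its probes (adjusted p = 0.0208). The nidogens Nid1 and Nid2, which bridge laminin and collagen IV, were lower, by log2 differences of -1.03 and -0.81 (adjusted p = 0.00874 and 0.00326). They were added after their values were seen.

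The visceral list had 9 tested genes, with 2 higher, 2 lower and 5 not past, and a median of -0.17. Trf, which encodes the iron carrier transferrin, rose 1.96-fold (adjusted p = 0.00236 in the limma fit), and Ttr, the thyroid hormone carrier transthyretin, was at least 1.40-fold higher. Ttr read 5.21, 5.77 and 4.99 in posterior and was detected on no anterior array. Lefty1, an inhibitor of Nodal made in anterior visceral endoderm and in pluripotent cells, fell 17.0-fold (adjusted p = 1.05e-05), although a probe may also see its close relative Lefty2. Spink1, a trypsin inhibitor, fell 7.05-fold (adjusted p = 0.000143). Apom, another apolipoprotein, and Hhex, a homeobox gene of endoderm, had log2 differences of -0.18 and -0.37 (adjusted p = 0.538 and 0.0850), and Hhex passed as lower without anterior replicate 1 (0.0487). No value is given for Afp, Rbp4, Apoa1 or Cer1, which had no named probe.

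In the definitive endoderm list 6 of 12 tested genes were higher, 2 lower and 4 not past, with a median of 0.50. No anterior array detected 5 of the 12. The forkhead gene Foxa1 read 8.11, 8.63 and 8.87 in posterior and was detected on no anterior array, at least 13.02-fold higher. Lhx1, a LIM homeobox gene, was at least 6.93-fold higher. The keratin gene Krt19 had a bound of 7.88-fold, and both were undetected on the anterior arrays. Trh, the precursor of thyrotropin-releasing hormone, fell 52.7-fold (adjusted p = 1.24e-05). Cdh1, the epithelial cadherin, had a log2 difference of -0.62 (adjusted p = 0.107), and it passed as lower without posterior replicate 3 (adjusted p = 0.0279). The claudin gene Cldn4 lay at 10.39 ± 0.54 in posterior and 10.39 ± 0.16 in anterior (SD, n = 3 each). The gut list had 5 of 11 genes higher, 2 lower and 4 not past, and no anterior array detected 4 of the 11. There the caudal gene Cdx1 rose 3.98-fold (adjusted p = 5.43e-05), Prox1, a homeobox gene of liver and lymphatic vessels, was at least 1.89-fold higher, and Klf5 fell 9.15-fold (adjusted p = 2.18e-06).

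The genes found only in extraembryonic lists and those found only in definitive or gut lists were set side by side. Of 29 tested genes listed only as extraembryonic, 18 were higher and 4 lower, with a median of 0.84, or 0.66 with undetected genes at their bound. Of 18 listed only as definitive or gut, 10 were higher and 3 lower, with a median of 0.78, or 0.56 at the bound, and 8 of the 18 were detected on no anterior array. The difference between these lists was not tested.

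**Figure D3:**
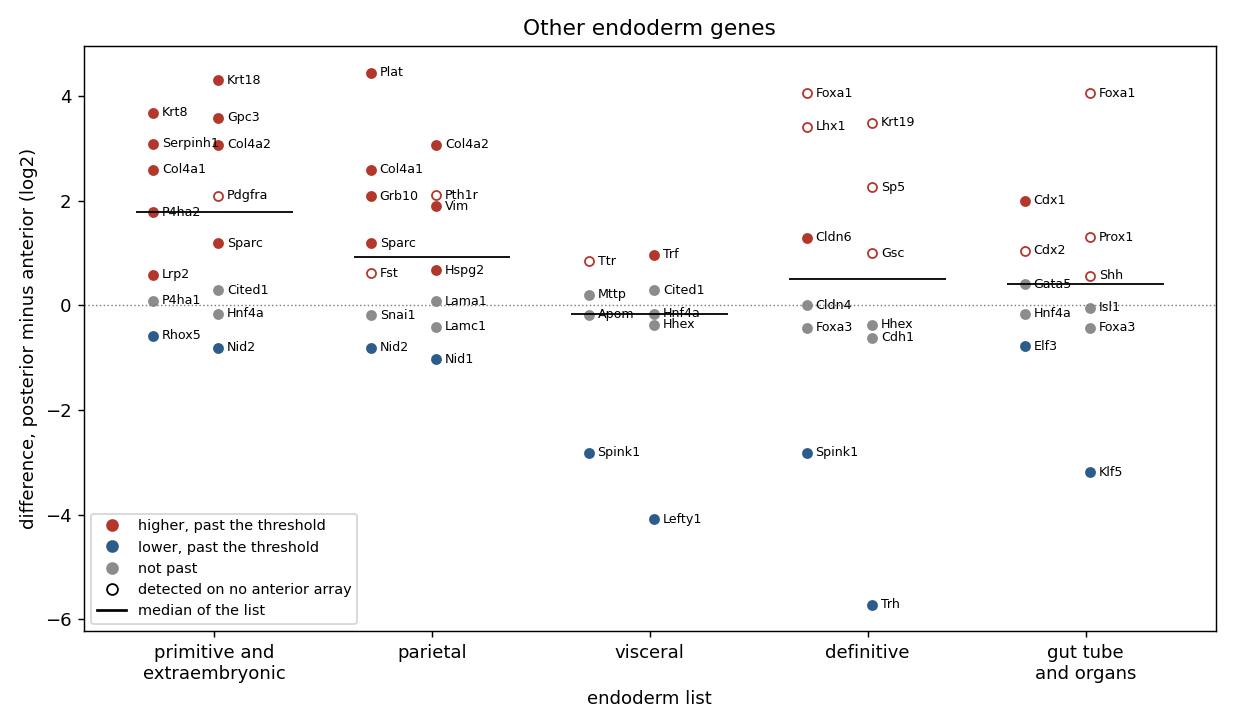
Posterior minus anterior log2 difference of each tested gene in the 5 endoderm lists, coloured by its call, with open circles for genes that no anterior array detected and a line at the median of each list. The medians are 1.77, 0.92, -0.17, 0.50 and 0.40 from left to right, and most of the higher genes in the definitive and gut lists are open circles.

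The closest relatives of the members moved unevenly. Of the 8 tested GATA family and cofactor genes, 4 were higher, 1 lower and 3 not past. Gata3 was at least 4.95-fold higher, and Gata2 lay at 7.12 ± 0.34 in posterior (SD, n = 3), against 4.85 ± 0.21 in anterior (SD, n = 3), where 1 of 3 arrays detected it (adjusted p = 5.38e-05). Lmo4, a LIM adaptor of GATA complexes, rose 3.04-fold and Lmo2 1.81-fold (adjusted p = 0.00139 and 0.00167 in the limma fit). Ep300, a histone acetyltransferase, had a log2 difference of 0.44 (adjusted p = 0.0579). It passed as higher without anterior replicate 3 (0.0214), with no background correction (0.0378), an offset of 50 (0.0404) and the authors' values (0.0371). It also passed with robust variances (0.0423) and the replicate block (0.0430). Zfpm2, the FOG2 partner of GATA4, was detected on 1 posterior and 2 anterior arrays. Its means were 4.67 in posterior and 4.97 in anterior (adjusted p = 0.310), and anterior replicate 1 was highest at 5.48. Gata5 read 4.59, 4.98 and 4.99 in posterior, against a mean of 4.46 in anterior (adjusted p = 0.143). Foxa1, described above, stood apart from Foxa3, which had a log2 difference of -0.43 (adjusted p = 0.0620). Sox15 was at least 1.77-fold lower, with no posterior array detecting it.

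Partners of the marker proteins were counted next. In the cubilin and megalin list 4 of 10 tested genes were higher, 1 lower and 5 not past. Lrp2, which encodes megalin, the partner of cubilin and cargo receptor of DAB2, read 8.72, 9.18 and 9.16 in posterior, against a mean of 8.44 in anterior. It passed as higher (log2 0.58, adjusted p = 0.0267) but no longer without posterior replicate 2 (adjusted p = 0.102) or 3 (0.0888), without anterior replicate 1 (0.0958) or with no detection filter (0.0667). Tcn2, the carrier of vitamin B12 in blood, passed as higher (log2 0.63, adjusted p = 0.0208), but not without posterior replicate 1 (0.0721), without anterior replicate 1 (0.0735) or 3 (0.0587), or with no detection filter (0.0586). Numb, an endocytic adaptor related to DAB2, rose 1.98-fold (adjusted p = 0.000820), Folr1, a folate receptor, rose by a log2 difference of 0.70 (adjusted p = 0.00852), and Dab1, the paralogue of Dab2 in reelin signalling, fell 2.35-fold (adjusted p = 0.000856). Lrpap1, the chaperone of megalin, and Myo6, an endocytic motor, had log2 differences of -0.38 and 0.37 (adjusted p = 0.0965 and 0.343), and Myo6 passed without anterior replicate 3 (0.00884).

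Of 19 tested genes for DAB2 partners and clathrin adaptors, 8 were higher, 2 lower and 9 not past, with a median of 0.38. Smad3, a mediator of TGF-beta and Nodal signals that DAB2 binds, rose 6.25-fold (adjusted p = 2.52e-05 in the limma fit) and Smad2 1.67-fold (adjusted p = 0.00259). The clathrin light chain gene Cltb fell 2.36-fold (adjusted p = 0.000767), while Clta had a log2 difference of -0.02 (adjusted p = 0.919) and Ap2s1 0.38 (adjusted p = 0.0895). Eps15 rose 1.87-fold (adjusted p = 0.00430). In the lipid transport list 4 of 12 genes were higher, 3 lower and 5 not past, with a median of 0.02. Apoc1, which lies beside Apoe in one gene cluster, fell 2.52-fold (adjusted p = 0.00134), and Pltp, which transfers phospholipid between lipoproteins, 3.62-fold (adjusted p = 6.36e-05). Sort1, a sorting receptor, rose 6.97-fold (adjusted p = 1.09e-05), and the APOE receptor gene Vldlr rose by a log2 difference of 0.72 (adjusted p = 0.0127). Lpl and Npc2 had log2 differences of 0.01 and -0.48 (adjusted p = 0.986 and 0.122).

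FGF signals induce Gata6 in primitive endoderm, and genes of that input were mostly lower in posterior, 5 of 8, with 2 higher and 1 not past. The receptor gene Fgfr2 rose 3.79-fold (adjusted p = 0.000116 in the limma fit). The ETS factor genes Etv5 and Etv4, which FGF induces, fell 16.8-fold and 11.7-fold (adjusted p = 8.08e-07 and 4.00e-06), and the feedback inhibitor gene Spry4 was at least 10.2-fold lower. Dusp6, an ERK phosphatase that the pathway induces, did not follow them, with a log2 difference of 0.52 (adjusted p = 0.0680). It passed as higher without posterior replicate 1 (0.0425), without anterior replicate 3 (0.0475), with the replicate block (0.0254) and with robust variances (0.0440). Nanog, whose protein and GATA6 repress each other in the early embryo, lay at 7.95 ± 0.33 in posterior (SD, n = 3), against 11.28 ± 0.18 in anterior (SD, n = 3), and all 3 posterior arrays detected it.

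The 6-array profile of each member, centred on its own mean, was compared with those of 9902 other genes by the root mean square difference. Foxa1 was the nearest gene to Gata6, at 0.068 log2 units, followed by Masp1, a complement protease, at 0.112 and the semaphorin receptor gene Plxna2 at 0.1402. For Sox7 probe 3 the nearest were Nsmf (0.078), Zfhx3 (0.091) and Gbx2 (0.108). Sox17 had no close match, with the Wnt target gene Sp5 at 0.450, Limch1 at 0.488 and Ppl, a desmosome-linked gene, at 0.542. Sp5 read 5.66, 6.78 and 7.43 in posterior, against a mean of 4.37 in anterior. For Dab2 the nearest were Moxd1 (0.162), Aatk (0.167) and Lrp4 (0.168), and for Apoe they were Slc30a2 (0.079), Gfpt2 (0.116) and Cyb5r1 (0.117). Amn, which hardly varied, was nearest to Sp3 (0.029), Serpina3j (0.039) and Rpl21 (0.040). With 6 arrays in 2 groups, this measure weighs the size of the difference between the groups. No anterior array detected Gata6, Foxa1 or Sox17 probe 1, so their anterior values lay under the lowest detected level.

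**Figure D4:**
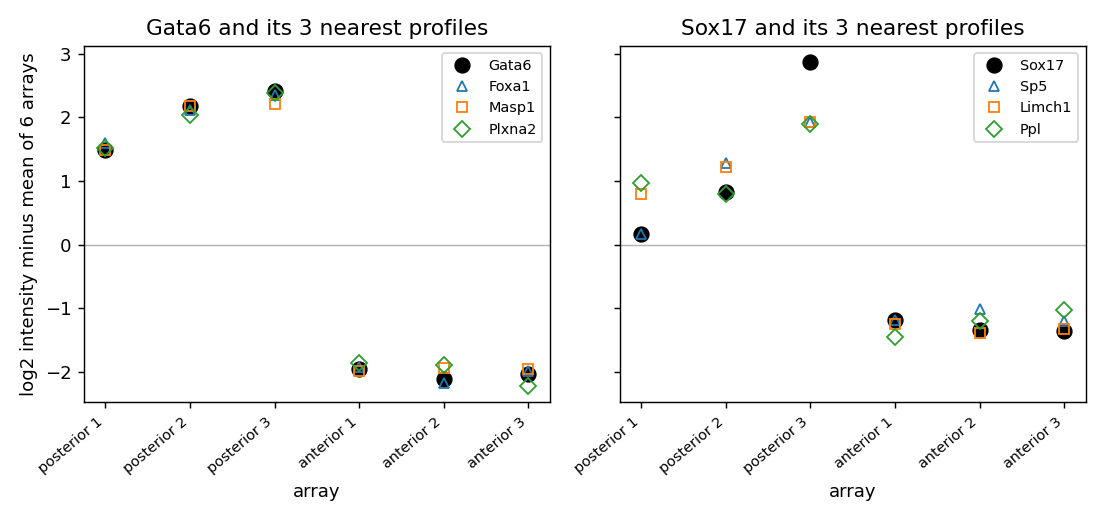
Log2 intensity minus the mean over the 6 arrays for Gata6 (left) and Sox17 (right), in black, with the 3 genes of smallest root mean square difference. Foxa1 lies within 0.068 of Gata6 on this measure, while the nearest gene to Sox17 is 0.450 away, and posterior replicate 3 of Sox17 stands above all 3.

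Since the members also mark other cells, markers of those cells were counted. In the endothelial list 1 of 8 tested genes was higher, 4 were lower and 3 did not pass, and the summed intensity after normalization lay between 1054 and 1299 in posterior, against 1920 and 2042 in anterior. Egfl7 alone made up 66.2% to 79.9% of that sum in posterior and 60.6% to 62.1% in anterior, so the sum mainly reads 1 probe, and its own log2 difference of -0.46 did not pass (adjusted p = 0.0560 in the limma fit). It passed as lower without posterior replicate 1 (0.0403), with no background correction (0.0390), an offset of 50 (0.0420) and the authors' values (0.0379). It also passed with robust variances (0.0361) and with the mean of its probes (0.0115). Pecam1 fell 8.11-fold (adjusted p = 5.54e-06 in the limma fit), Vwf was at least 3.42-fold lower, Flt1 was at least 2.80-fold higher, Etv2 fell 2.77-fold (adjusted p = 0.000335), and Eng had a log2 difference of 0.17 (adjusted p = 0.492). In the cardiac list 3 of 7 were higher and 4 did not pass, with sums of 386 to 638 in posterior, against 254 to 303 in anterior. The largest difference was that of Actc1, which no anterior array detected and which therefore entered the fit through posterior alone. It read 4.98, 7.31 and 5.31 in posterior, at least 2.05-fold higher, with a log2 difference of 1.58. Without posterior replicate 2 that difference was 0.86, under those of Actn2 and Myl7 with all arrays (1.01 and 0.91). Actc1 passed in the limma fit (adjusted p = 0.0363), but not without anterior replicate 1 (0.0981), 2 (0.0659) or 3 (0.0767), or under 5 other alternatives. Actn2 rose 2.02-fold (adjusted p = 0.00165) and Myl7 1.88-fold (adjusted p = 0.00263), and Myl4 and Isl1 had log2 differences of 0.16 and -0.05 (adjusted p = 0.661 and 0.855). Of the trophoblast list, which shares Gata2, Gata3 and Cdx2 with lists above, 7 of 8 were higher and 1 lower, with sums of 856 to 1319 in posterior, against 1754 to 2651 in anterior. The gene that was lower, Tfap2c, is also expressed in pluripotent cells, was 4.44-fold lower and made up 93.9% to 95.3% of the anterior sum, against 35.2% to 48.0% in posterior. Krt7, a simple epithelial keratin, rose 5.35-fold (adjusted p = 9.65e-05). Of 13 macrophage genes 1 was tested, Cd14, and it did not pass (adjusted p = 0.184). Of 4 tested node and floor plate genes, Shh was higher, at least 1.08-fold, and Nodal fell 3.78-fold (adjusted p = 0.000124). Dnah11 and Chrd had log2 differences of 0.35 and 0.46 (adjusted p = 0.158 and 0.0743). Chrd passed as higher without anterior replicate 3 (0.0455) and with median scaling (0.0443). Among 4 absorptive epithelium genes 1, Lrp2, was higher and 1, Pdzk1, lower, with log2 differences of -0.28 for Slc9a3r1 and -0.15 for Aqp1 (adjusted p = 0.382 and 0.468). The part of these cell types in the differences of the members was not tested.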

How the data were processed

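Total RNA of 6 samples, 3 labelled posterior and 3 labelled anterior, was read on 1-colour Illumina bead arrays, 1 array each. The deposited table holds, for 45281 probes, a linear intensity without background subtraction or normalization. Beside each deposited intensity stands its detection p-value, per the file headers. The authors' deposited log2 values cover 18312 probes. They equal the quantile-normalized log2 intensities to within 5e-09 and comprise every probe whose detection p-value fell under 0.01 on some array. Of tools, the submitters' processing notes list limma, with no version. The scanner software and genome build are not given in the sources used here.

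The neqc function of limma 3.58.1 in R 4.3.3 was applied: normexp background from the detection p-values, an offset of 16, quantile normalization and log2. That offset makes differences of dim probes smaller. Probes with a detection p under 0.05 on at least 3 arrays, 18242 in all, were fitted with lmFit and eBayes, with Benjamini-Hochberg adjustment over all of them and a threshold of 0.05. For a gene with several tested probes, the one of highest mean level stood for it. Of the 18312 probes with authors' values, the platform annotation named 15550 with 1 gene, 9 with several and 2753 with none. Other probes of the array had no annotation here. The RefSeq table changed 0 symbols. The number of arrays limits the precision.

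Where no array of a group detected a probe, its fold is a bound, from the mean of the bright group against the mean, per array of the dim group, of the higher of the lowest detected level and the value of the probe. Summed intensities are the normalized values off the log scale minus the offset. Genes named from each list are up to 4 past the threshold by size and, of those that did not pass, up to 2 of highest mean level. Some of the latter, such as Hnf4a, lay near the detection limit. Other list genes named (Nid1, Nid2, Gata5 and Nanog) were added after their values were seen, and for each member the 3 genes of most similar profile were named.

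The members and all lists were chosen with earlier results of these data known. Alternatives changed the background correction, offset, scaling, filter, probe choice, variance model and replicate block, used the authors' values, or left out each sample. The fit was tested on simulated data in which 200 probes changed. Plots used Python 3.11.15 with matplotlib 3.10.9.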

Additional observations from a re-analysis of the deposited data

How the results depend on the processing

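Under the alternatives, 126 of 127 values of the member probes kept their direction. The exception was Amn, at 0.12 with arrays scaled to a common median, against -0.19. In 22 cases the value moved by more than the SD between replicates, mostly toward 0 with the authors' values, no background correction or an offset of 50. Gata6 was at 2.63, 2.69 and 2.87 under these, against 4.05, and the cause was not tested. Sox17 probe 1 was at 1.79 without posterior replicate 3. The endoderm lists had 36 genes past the threshold, 31 to 35 with each array left out in turn, and 22 of 32 among probes detected on all 6 arrays, where fewer genes were tested. Over all genes 4699 passed, and 3699 to 4653 without 1 array. With median scaling the middle of all genes shifted by 0.17, and 72.1% of 3530 calls were higher, against 54.7%. The replicate block gave 4744 genes and 36 listed endoderm genes. Same-numbered samples deviated together with correlations of 0.289, 0.162 and -0.077. Posterior replicates 1 and 2 correlated best with the anterior replicate of the same number, and posterior replicate 3 with anterior replicate 2 (0.335). With 3 arrays a group, these correlations cannot tell whether same-numbered samples were paired. Of 108 list and likeness genes, 3 lost their call under an alternative (Actc1, Lrp2 and Tcn2), 10 gained one and 0 reversed. Dim probes near the lowest detected level limit what can be said of Foxa2, Hnf4a and Shh.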
